A study of Mus musculus with 22 samples.

Results

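The S100 proteins and the annexins were examined as 1 module in a RiboTag study of mouse spinal cord astrocytes. The members were all rows of the deposited count tables whose gene symbol starts with S100 or is Anxa followed by digits. This gave 30 of 24060 gene rows, 18 S100 rows and 12 annexin rows. S100pbp, an S100P-binding protein, matches the symbol pattern but is not an S100 protein, and it is kept in every count.

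RiboTag mice carry an epitope (HA) tag on a ribosomal protein that becomes expressed where Cre recombinase acts, so that an HA immunoprecipitation (HA IP) collects ribosome-associated RNA of those cells. All animals here were young adult females in which Cre was driven by the mouse GFAP promoter (mGFAP-Cre-RiboTag), so the tagged cells are those in which this promoter is or was active. The uninjured group (4 animals, numbered 42, 79, 65 and 154 in the labels) and the wild-type injured group (WT SCI, 4 animals, 9935, 9874, 9843 and 9596) had this genotype. The STAT3-CKO SCI group (3 animals, 186, 531 and 270) was mGFAP-Cre-RiboTag-STAT3-LoxP, in which the same Cre also deletes a floxed part of Stat3. Injured animals had a severe crush at thoracic level 10, and the central 3 mm of the lesion was taken 14 days later. Each animal gave an HA IP library and a library of the flow-through, the RNA of the same tissue left unbound, for 22 libraries in all. These 22 libraries include no uninjured STAT3-CKO group, so the genotypes could be compared only after injury. A genotype difference already there without injury cannot be told apart from one that arises after it. The STAT3-CKO SCI versus uninjured comparison differs in genotype and in injury.

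S100 proteins are small calcium-binding proteins that mostly work as dimers. On binding calcium they expose a surface that grips target proteins, and some are also released and act on receptors such as RAGE (Ager) and TLR4. Annexins bind phospholipid membranes in the presence of calcium and take part in membrane repair, vesicle traffic and resolution of inflammation. Several S100 dimers pair with the N-terminal tail of an annexin, S100A10 with annexin A2 and S100A11 with annexin A1 being the best known pairs. S100B is a long-used astrocyte marker, and STAT3 is a transcription factor that cytokine receptors activate and that astrocytes need for their full reactive response.

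Total counts per HA IP library ranged from 31292491 to 59337089 over the 11 animals. Most counts of the injured libraries lay in the ribosomal RNA row Rn45s, whose HA IP share was 89.0% to 96.2% for WT SCI animals and 52.2% to 89.2% for STAT3-CKO SCI animals but 12.6% to 26.7% for uninjured ones. Without Rn45s, Lars2 and Mir6236 there remained at least 26934866 counts per uninjured library, 620265 to 2691494 per WT SCI library and 2496641 to 17348247 per STAT3-CKO SCI library, so WT SCI values are the least precise. The Rn45s share and the injury cannot be told apart, because the ranges of uninjured and injured libraries do not overlap. Flow-through libraries held 3898755 to 11242654 counts. In each of the 11 animals the HA IP count of a gene was at least as high as the flow-through count of that animal in all but 0 to 3 genes, against 29 to 15863 genes when HA IP and flow-through came from different animals. No member's flow-through count exceeded the HA IP count of the same animal, in 203 cases with at least 1 flow-through count, and 21 of these pairs were equal. The 2 fractions as deposited are therefore not independent, and HA IP results were also computed after subtracting each animal's flow-through counts, a choice made after seeing the data. In uninjured animals 10 of 10 astrocyte markers were higher in HA IP than in flow-through, and 10 of 10 neuronal markers were lower. Of all 14312 genes tested in this comparison, 26.4% were called higher and 24.2% lower. Oligodendrocyte precursor (5 of 5) and ependymal (4 of 4 tested) markers were also higher. The HA IP was therefore not enriched for astrocyte markers alone. Markers called lower included 10 of 14 microglia and macrophage and 7 of 8 oligodendrocyte and myelin markers. Stat3 itself read 12.2, 14.2, 15.5 and 13.3 CPM (counts relative to library size, which was scaled between libraries by TMM) in uninjured HA IP, 66.1, 56.2, 26.3 and 35.0 in WT SCI and 7.85, 10.1 and 12.3 in STAT3-CKO SCI. The genotype groups did not overlap for Stat3 (log2 difference -2.17, SE 0.34, edgeR adjusted p = 0.00331).

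Of the 30 members, 17 passed the filter on low counts among the HA IP libraries and 15 among the flow-through libraries. The 17 were S100b, S100a1, S100a4, S100a6, S100a10, S100a11, S100a13, S100a16, S100pbp and the annexins Anxa2, Anxa3, Anxa4, Anxa5, Anxa6, Anxa7, Anxa9 and Anxa11. Anxa9 and Anxa11 were not tested in flow-through. S100a5 and S100z had 0 counts in all 22 libraries. In GENCODE vM21 (GRCm38, the mm10 assembly) 12 of the S100 genes lie within chr3:90511034-90695721, S100a11 and S100a10 lie farther along at chr3:93520488-93564643, and S100b stands alone at chr10:76253853-76261159. Annexin genes are scattered over the genome. Exons of S100a4 and S100a3 overlap those of Gm42674 on the same strand, so their counts could be shared with it. The same holds for Anxa3 with Gm42603 and for Anxa9 with 6330562C20Rik. Exons of Anxa2, Anxa4, Anxa9 and Anxa11 overlap antisense or opposite-strand transcripts, and without a stated strand setting those reads cannot be told apart.

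Compared per length, on the authors' adjusted FPKM scale in HA IP, S100b was the highest member in every group, at 105 ± 21.4 (SD, n = 4) in uninjured, 175 ± 26.4 (n = 4) in WT SCI and 81.5 ± 19.7 (n = 3) in STAT3-CKO SCI. Below it in uninjured animals came S100a1 at 36.2 ± 10.2, Anxa5 at 16.6 ± 2.39 and S100a16 at 15.8 ± 4.43, the last pair within each other's spread. After injury in wild-type animals the order changed to S100a6 at 91.3 ± 29.6, S100a16 at 82.1 ± 22.9 and S100a1 at 65.9 ± 27.4, neighbours that again lie within each other's spread. In STAT3-CKO SCI the order below S100b was S100a1 (30.8 ± 8.71), S100a16 (26.6 ± 12.8), S100a6 (13.6, from 7.35 to 22.6) and Anxa5 (12.8 ± 1.12). S100a6 thus ranked 7th of the members in uninjured, 2nd in WT SCI and 4th in STAT3-CKO SCI on this scale.

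WT SCI was compared with uninjured in HA IP to ask how injury changed the module in the RNA collected by HA IP. S100a4, S100a6, S100a11, S100a13, S100a16, S100a1, S100b, Anxa2, Anxa3, Anxa4 and Anxa7 rose, S100a10 and Anxa6 fell, and Anxa5, Anxa9, Anxa11 and S100pbp did not pass the test. That is 11 of 17 tested members higher and 2 lower by edgeR's quasi-likelihood test at a Benjamini-Hochberg adjusted p under 0.05, where of all 14764 genes tested 15.8% were called higher and 10.9% lower (26.7% in all). The median log2 difference was 1.21 over the 17 members and 0.00 over all genes tested. Members enter this count only if they passed the filter, which a gene can do through the group where it is high. The authors' deposited table lists 14 members higher and 2 lower at a false discovery rate under 0.05. Among its higher ones are Anxa1 (log2 6.21, false discovery rate 0.000767), Anxa13 (4.87, 0.0331) and S100a8 (4.85, 0.0287). These had few counts and did not pass the filter here.

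The 4 S100 genes known from glia all rose. S100b, which astrocytes release and which binds RAGE, read 336, 533, 515 and 415 CPM in the uninjured animals, 921, 704, 833 and 667 in WT SCI and 389, 427 and 260.03 in STAT3-CKO SCI. Every WT SCI library lay above every other library. The log2 difference for injury was 0.80 (SE 0.24, adjusted p = 0.0213, edgeR). S100a1, a regulator of calcium handling in muscle that is also present in brain, read 39.8, 72.3, 70.0 and 47.7 CPM uninjured against 134, 158, 58.6 and 84.1 in WT SCI. Its groups overlapped through WT SCI animal 9843, and its log2 difference was 0.92 (SE 0.31, adjusted p = 0.0359). Without the flow-through counts S100a1 no longer passed (log2 0.84, adjusted p = 0.0531). Its call also ended without uninjured animal 42 or 154 or WT SCI animal 9935 or 9874 (adjusted p = 0.112, 0.104, 0.0760 and 0.114), and that of S100b without uninjured animal 42 or 154 (0.0755 and 0.0715).

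S100a13, which assists the export of a fibroblast growth factor that lacks a signal peptide, read 11.5, 20.1, 20.9 and 15.6 CPM uninjured and 72.3, 55.8, 36.6 and 60.4 in WT SCI. The injured libraries were all higher, and the log2 difference was 1.72 (SE 0.33, adjusted p = 0.000755). S100a16 read 29.9, 56.2, 50.4 and 36.6 CPM uninjured and 261, 283, 138 and 251 in WT SCI, without overlap. Its log2 difference was 2.43 (SE 0.33, adjusted p = 3.15e-05), the largest of this group, and animal 9843 was again the lowest injured library.

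S100a1 and S100a13 lie head to head on opposite strands of chromosome 3, with the 5′ end of S100a1 at 90514392 (minus strand, chr3:90511034-90514392) and that of S100a13 at 90514435 (plus strand, chr3:90514435-90524581). The stretch between their annotated 5′ ends is shown because it stands before both genes. It is 42 bases long at chr3:90514393-90514434 (GRCm38.p6, plus strand, from the RefSeq promoter table). It holds neither of the 2 motifs searched.

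S100a1-S100a13: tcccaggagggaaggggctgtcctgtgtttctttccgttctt

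In STAT3-CKO SCI, S100a1 read 45.6, 66.1 and 39.0 CPM and S100a13 read 23.7, 18.6 and 8.50 CPM. For these neighbours the log2 differences between genotypes were -1.11 (SE 0.34, adjusted p = 0.119) and -1.74 (SE 0.36, adjusted p = 0.0242), so only the second passed the test, and their difference from each other was not tested.

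**Figure D1:**
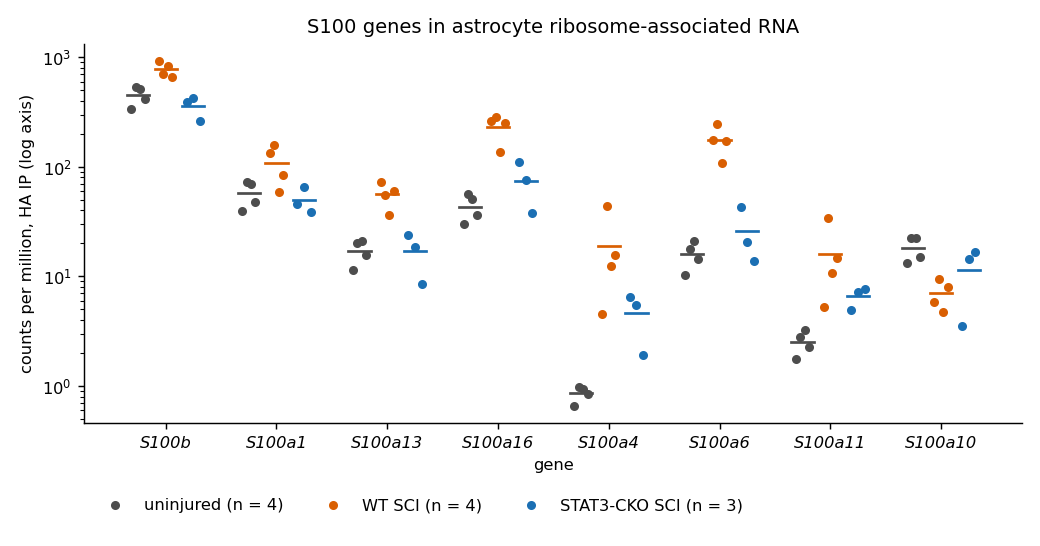
TMM-scaled CPM (log axis) of 8 S100 genes in the HA IP libraries; points are animals and bars are group means. WT SCI points lie above uninjured points for 7 of the genes, with overlap for S100a1, and below them for S100a10.

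Among the S100 genes known from motile or stressed cells, 3 rose and 1 fell. S100a6 (calcyclin), which binds cytoskeletal and annexin partners, read 10.4, 17.9, 20.9 and 14.4 CPM uninjured and 177, 248, 108 and 171 in WT SCI. The lowest injured library was above the highest uninjured one, an 11.1-fold difference (log2 3.47, SE 0.37, adjusted p = 2.33e-06). S100a4, which binds non-muscle myosin and is known from fibroblasts and migrating cells, read 0.66, 0.99, 0.93 and 0.85 CPM uninjured and 4.56, 43.6, 12.6 and 15.6 in WT SCI. All injured libraries were higher, but they spread widely, with animal 9874 far above the others (log2 4.49, SE 0.59, adjusted p = 1.97e-05). Without that animal the log2 difference was 3.70, and with thinning to equal depth 3.50, and it passed in both. S100a11, a membrane repair partner of annexins, read 1.78, 2.81, 3.21 and 2.26 CPM uninjured and 5.21, 33.8, 10.6 and 14.8 in WT SCI, with the same animal 9874 highest. Its log2 difference was 2.70 (SE 0.47, adjusted p = 0.000341), or 2.06 without animal 9874 (adjusted p = 0.00135).

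S100a10 (p11), which carries membrane channels and annexin A2 to the cell surface, moved the other way. It read 13.4, 22.3, 22.3 and 15.0 CPM uninjured and 5.87, 9.39, 4.71 and 8.02 in WT SCI. The groups did not overlap, with a log2 difference of -1.37 (SE 0.42, adjusted p = 0.0210). The call was lost when uninjured animal 79, uninjured animal 65 or WT SCI animal 9843 was left out (adjusted p = 0.0609, 0.0640 and 0.0546).

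Among the 8 annexins tested 4 rose, 1 fell and 3 did not pass. Anxa2, the main annexin partner of S100A10 and a plasminogen receptor, read 2.19, 3.99, 3.21 and 3.68 CPM uninjured and 17.3, 16.4, 16.7 and 17.6 in WT SCI. The WT SCI libraries were close together (coefficient of variation 3.20%), and the log2 difference was 2.38 (SE 0.33, adjusted p = 3.43e-05). Anxa2 and S100a10 therefore changed in opposite directions in the same libraries. Anxa3, which is known from phagocytes and microglia, read 0.12, 0.45, 0.77 and 0.36 CPM uninjured and 9.78, 12.8, 9.94 and 6.86 in WT SCI. All injured libraries were higher, with a log2 difference of 4.54 (SE 0.56, adjusted p = 1.16e-05), within the SE of that of S100a4.

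Anxa7, an annexin that fuses membranes, read 6.49, 7.56, 8.93 and 7.79 CPM uninjured and 24.1, 43.1, 14.6 and 16.7 in WT SCI (log2 1.68, SE 0.34, adjusted p = 0.00139). The groups did not overlap, and animal 9874 was again the highest. Anxa4 read 1.82, 2.81, 3.67 and 3.95 CPM uninjured and 7.49, 7.01, 9.24 and 4.87 in WT SCI (log2 1.21, SE 0.40, adjusted p = 0.0296). This was a marginal call that ended without the flow-through counts (log2 0.62, adjusted p = 0.374), and without any 1 of the uninjured animals or WT SCI animal 9843 (adjusted p from 0.0503 to 0.102). Anxa6, the double-length annexin of endosomes and plasma membrane, fell from 20.9, 26.1, 29.5 and 24.9 CPM to 13.03, 11.9, 11.7 and 10.4 in WT SCI, with a log2 difference of -1.12 (SE 0.27, adjusted p = 0.00457). Anxa5, the phosphatidylserine-binding protein used to stain dying cells, spanned 64.2 to 83.2 CPM uninjured and 44.1 to 76.4 in WT SCI (log2 -0.30, SE 0.24, adjusted p = 0.380).

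**Figure D2:**
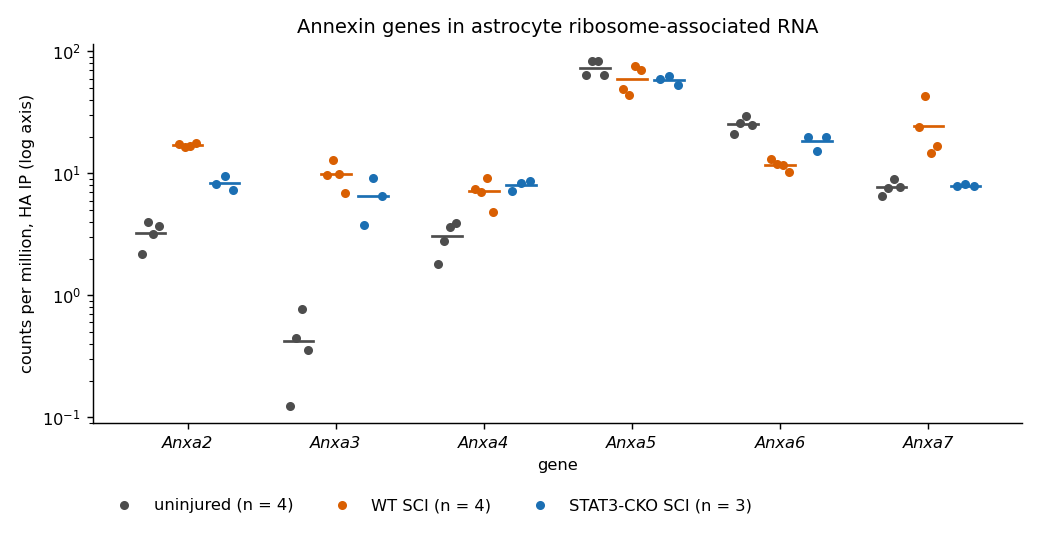
TMM-scaled CPM (log axis) of 6 annexin genes in the HA IP libraries; points are animals and bars are group means. Anxa2 sits at 16.4 to 17.6 in WT SCI, 7.26 to 9.52 in STAT3-CKO SCI and 2.19 to 3.99 in uninjured animals, whereas Anxa5 overlaps between uninjured and WT SCI.

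Markers of other cells moved with injury in the same HA IP libraries, where 15.8% of all genes tested were called higher and 10.9% lower in WT SCI. In bulk RNA, fewer cells of a type and less RNA per cell cannot be told apart. Of 15 microglia and macrophage markers tested 13 were higher in WT SCI, and their summed level was 16.3 to 40.9 CPM without injury, 682 to 2297 CPM across WT SCI animals and 931 to 1317 CPM across STAT3-CKO SCI animals. Fibroblast and pericyte markers summed to 9.01 to 13.1, 22.6 to 73.2 and 25.8 to 50.8 CPM, with 4 of 7 tested higher in WT SCI and Rgs5 at 0 there. Neutrophil markers summed to 0.61 to 0.68, 3.36 to 12.4 and 3.78 to 14.8 CPM, with Elane, Ltf and Cxcr2 at 0 in WT SCI. Oligodendrocyte and myelin markers summed to 1347 to 1784, 5752 to 8465 and 3473 to 4085 CPM, with 7 of 8 higher in WT SCI. Of the oligodendrocyte precursor markers 5 of 5 were higher in WT SCI. The part of these cells' RNA in the changes of the called members, S100b and the other glial S100 genes included, was not tested. Of the 10 astrocyte markers, 1 was higher (Gfap) and 5 were lower in WT SCI.

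STAT3-CKO SCI was then compared with WT SCI in HA IP, to ask which members depended on STAT3 in the injured state. S100a6, S100a13, S100a16, S100b and Anxa7 were lower in STAT3-CKO SCI and no member was higher. This is 5 of 17 tested members lower and 0 higher, where 0.562% of all genes tested were called lower and 0.596% higher (1.16% in all). The median log2 difference was -1.03 over the 17 members and 0.03 over all genes tested. This comparison and the injury comparison share the WT SCI libraries. Called here were 3 of the 4 glial S100 genes, 1 of the 4 motile-cell S100 genes and 1 of the 8 annexins. Median log2 differences were -1.38 over the glial S100 genes, -1.69 over the motile-cell S100 genes and 0.07 over the annexins. In uninjured animals both S100 sets lay similarly far above flow-through (median log2 1.92 and 2.05), so the set names do not separate them by enrichment.

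S100a6 had the largest difference. It read 43.4, 20.4 and 13.9 CPM in STAT3-CKO SCI against 108 to 248 in WT SCI, with no overlap, a 6.82-fold lower level (log2 -2.77, SE 0.40, adjusted p = 0.00182, edgeR). It was the only member called in each of the alternatives and with each HA IP library left out. S100a16 read 111, 76.0 and 37.8 CPM against 138 to 283 (log2 -1.64, SE 0.36, adjusted p = 0.0296). S100a13 was at 8.50 to 23.7 CPM against 36.6 to 72.3, and S100b at 260.03 to 427 against 667 to 921 (log2 -1.12, SE 0.27, adjusted p = 0.0474). Anxa7 read 7.85, 8.20 and 7.82 CPM, inside the uninjured range, against 14.6 to 43.1 in WT SCI (log2 -1.63, SE 0.38, adjusted p = 0.0402). None of these 5 overlapped between genotypes, nor did Anxa2 on the lower side or Anxa6 on the higher side. Of all genes tested, 3.07% had every STAT3-CKO SCI library below every WT SCI library and 6.12% had every one above.

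These calls differ in how firmly they stood. When only the WT SCI and STAT3-CKO SCI libraries entered the fit, S100a6 alone passed, and DESeq2 called 8 members lower by adding Anxa2, S100a1 and S100a4. The shares of all genes called in these alternatives are not given here. Leaving out STAT3-CKO SCI animal 531 or 270 also left S100a6 alone, and leaving out WT SCI animal 9874 left 2. The call of S100b was lost when any HA IP library other than that of WT SCI animal 9596 was left out (adjusted p from 0.0501 to 0.159). That of Anxa7 was lost with only these 2 groups (0.200) and without any 1 of the 4 uninjured animals, WT SCI animal 9874 or any 1 of the 3 STAT3-CKO SCI animals (0.0613 to 0.144). The authors' deposited table lists 6 members lower at a false discovery rate under 0.05, the same 5 and S100a4 (log2 -2.05, false discovery rate 0.0301).

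**Figure D3:**
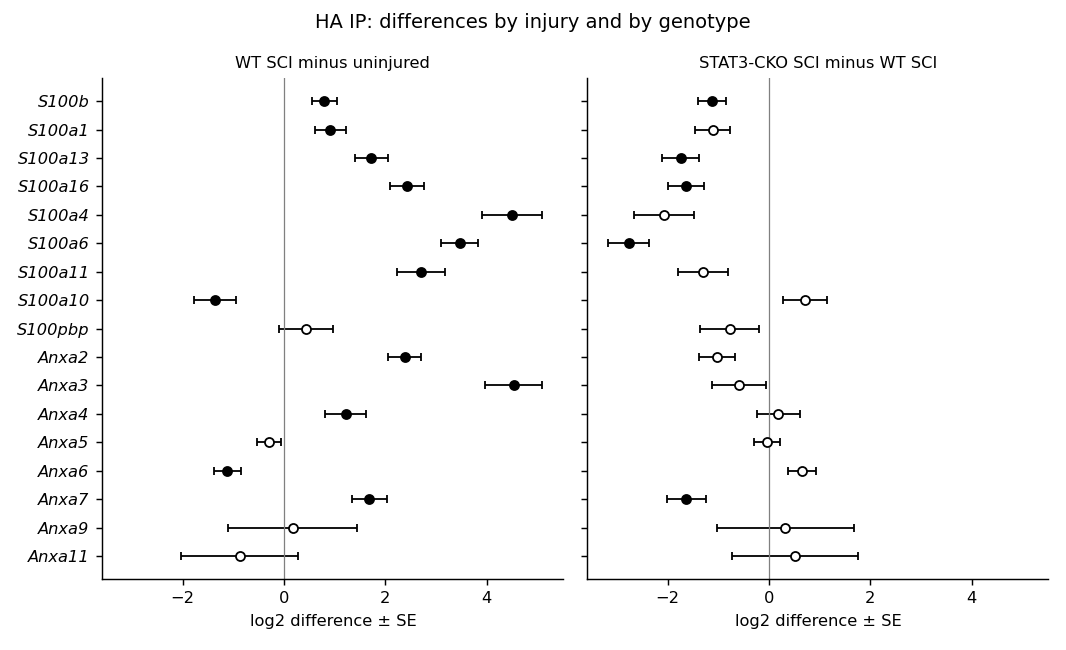
Log2 differences ± SE for the 17 members tested in HA IP, for injury (left) and for STAT3 genotype after injury (right); filled points passed the test at an adjusted p under 0.05. On the left 11 filled points lie to the right of 0 and 2 to its left; on the right all 5 filled points lie to the left, S100a6 farthest at -2.77.

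Other members gave values without a call. S100a4 was at 6.52, 5.44 and 1.92 CPM in STAT3-CKO SCI, and overlapped WT SCI through animal 9935 (log2 -2.08, SE 0.59, adjusted p = 0.0935). Anxa2 read 8.27, 9.52 and 7.26 CPM, below every WT SCI library and above every uninjured one (log2 -1.03 against WT SCI, SE 0.35, adjusted p = 0.148). S100a10 read 3.50, 14.3 and 16.7 CPM, with animal 186 lowest (log2 0.71, SE 0.44, adjusted p = 0.431). S100a11 read 4.98, 7.19 and 7.65 CPM and Anxa3 3.78, 9.17 and 6.57, both overlapping WT SCI. Anxa4 read 7.22, 8.34 and 8.61 CPM, also with overlap, and Anxa6 read 19.97, 15.3 and 19.7, above every WT SCI library. Anxa3, Anxa4, Anxa5, Anxa6, Anxa9, Anxa11, S100a11 and S100pbp ranged from -1.30 to 0.65 in log2 difference.

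The share of Rn45s counts varied within the STAT3-CKO SCI group and moved with several members. Animal 186 had 89.2% of its HA IP counts in Rn45s, 531 had 80.0% and 270 had 52.2%, and S100a6, S100a13, S100a16 and S100a4 were highest in 186 and lowest in 270, while S100a10 ran the other way. The part of the Rn45s share in the genotype differences was not tested. Of the other cell types' markers, 0 of 15 microglia and macrophage and 0 of 7 fibroblast and pericyte markers were called between genotypes. In STAT3-CKO SCI 1 of 8 oligodendrocyte and myelin markers was lower and 1 of 5 Schwann markers higher. The shares of all genes tested were 0.562% lower and 0.596% higher. The summed oligodendrocyte and myelin level did not overlap between genotypes (3473 to 4085 CPM against 5752 to 8465) and was lower in STAT3-CKO SCI, as the 5 members were, and its part in their differences was not tested. Gfap, whose promoter drives the Cre, was lower in STAT3-CKO SCI (536, 674 and 356 CPM against 1738 to 3146, log2 -2.13, SE 0.32, adjusted p = 0.00247).

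**Figure D4:**
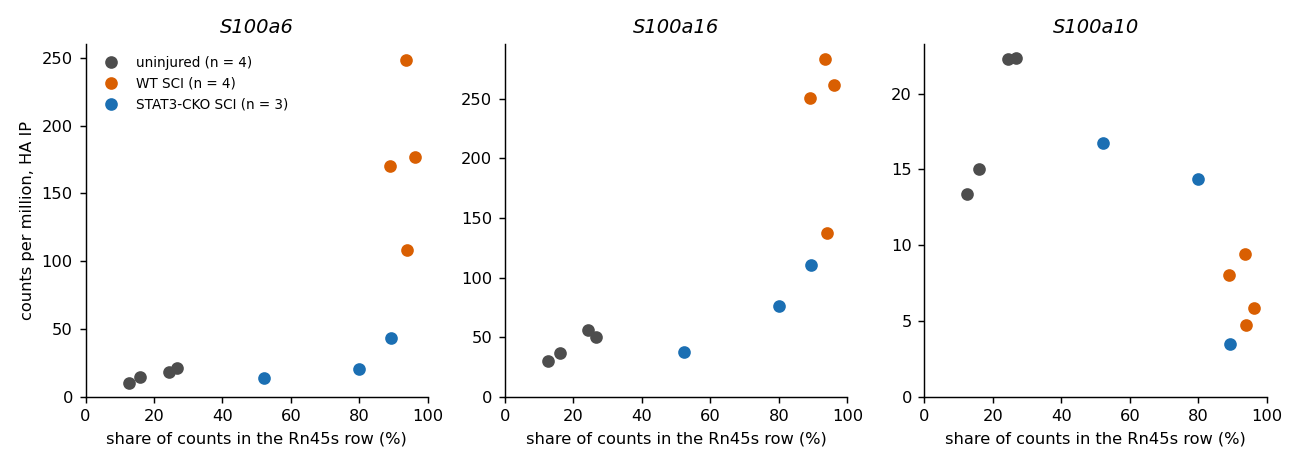
TMM-scaled CPM in HA IP of S100a6, S100a16 and S100a10 against the share of each library's counts in the Rn45s row; each point is an animal. WT SCI libraries lie between 89.0% and 96.2% and STAT3-CKO SCI libraries between 52.2% and 89.2%, and within the latter S100a6 and S100a16 are highest, and S100a10 lowest, in the library with the largest share.

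Promoters of the members were searched for a STAT-type motif, TTCNNNGAA, and an AP-1-type motif, TGANTCA, on both strands of the 300 bases around each RefSeq start (250 before, 50 after; GRCm38.p6). Of the 30 members 24 had a promoter in the table. The STAT-type motif was found for 9.55% of all 27025 genes in the table and for 2 of the 24 members (8.33%), S100a7a and S100z, neither of which was tested. It was in none of the 7 promoters of the 5 members lower in STAT3-CKO SCI. The AP-1-type motif was found for 8.97% of all genes and for 4 of the 24 members (16.7%), Anxa10, Anxa2, S100a11 and S100a16. A match is a description of letters, and no match says only that these letters are not in this window. The upstream sequences of S100a6, the member with the largest genotype difference, and of the S100a16 start that holds the AP-1-type match are shown for comparison. They are chr3:90612644-90612881, which ends 12 bases before the RefSeq start of S100a6, and chr3:90540896-90541145, both on the plus strand and outside annotated exons. The choice of sequences was made after values were seen, and capitals mark the match to TGANTCA. The N in that motif accepts any base, wider than a middle C or G, and it is A in the match shown.

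S100a6: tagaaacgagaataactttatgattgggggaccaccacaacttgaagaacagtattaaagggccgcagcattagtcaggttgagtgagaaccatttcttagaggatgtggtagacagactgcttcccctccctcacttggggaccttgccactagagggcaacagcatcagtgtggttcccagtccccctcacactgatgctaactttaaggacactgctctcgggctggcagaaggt

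S100a16: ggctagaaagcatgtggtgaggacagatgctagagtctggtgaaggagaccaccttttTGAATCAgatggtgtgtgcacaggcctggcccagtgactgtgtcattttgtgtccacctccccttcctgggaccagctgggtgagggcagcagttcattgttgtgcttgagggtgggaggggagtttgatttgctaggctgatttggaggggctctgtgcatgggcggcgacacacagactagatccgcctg

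Against the uninjured animals, STAT3-CKO SCI HA IP libraries had 4 members higher and 0 lower of 17, where 7.7% of all genes tested were called higher and 2.08% lower (9.78% in all). This comparison shares its uninjured libraries with the WT SCI comparison, so the values are given side by side. Anxa3 was higher by a log2 of 3.95 (SE 0.56, adjusted p = 8.52e-05; 4.54 in WT SCI) and S100a4 by 2.42 (SE 0.56, adjusted p = 0.00821; 4.49 in WT SCI). Anxa4 was higher by 1.40 (SE 0.41, adjusted p = 0.0364; 1.21 in WT SCI) and Anxa2 by 1.35 (SE 0.33, adjusted p = 0.0123; 2.38 in WT SCI). Of the glial S100 genes none was called, with log2 differences from -0.33 for S100b to 0.79 for S100a16, and S100a6 was at 0.70 (SE 0.36, adjusted p = 0.264). After subtraction of the flow-through counts Anxa2 and Anxa4 no longer passed (adjusted p = 0.136 and 0.263), and Anxa3 and S100a4 remained called. The S100a4 call was lost with thinning to equal depth (log2 1.43, adjusted p = 0.251) and without STAT3-CKO SCI animal 186 (0.0522), and the Anxa2 call without uninjured animal 42 (0.0613) or STAT3-CKO SCI animal 531 (0.0641). The Anxa4 call also ended without any 1 of the uninjured or STAT3-CKO SCI animals (adjusted p from 0.0632 to 0.138).

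In the flow-through, RNA of the same tissue not bound by the HA antibody, WT SCI animals had 11 of 15 tested members higher than uninjured and 1 lower. The background was 16.7% of genes called higher and 14.3% lower (31% in all), and the median log2 difference was 2.02 for the members and -0.09 for all genes. Anxa3 (log2 4.65, SE 0.66, adjusted p = 4.66e-06), S100a6 (3.03, SE 0.45, adjusted p = 9.06e-06) and Anxa4 (2.99, SE 0.48, adjusted p = 2.37e-05) rose, and so did S100a4 (adjusted p = 0.000851). S100a13, S100a16, S100a1, S100b, S100a11, Anxa2 and Anxa5 were also higher and Anxa6 was lower (log2 -1.46, SE 0.39, adjusted p = 0.00585). Anxa5 read 12.5, 22.01, 25.1 and 18.1 CPM uninjured and 21.7, 27.1, 48.7 and 38.5 in WT SCI flow-through. Its log2 difference of 0.85 (SE 0.30, adjusted p = 0.0340) lost its call with RLE scaling (adjusted p = 0.0655), with no filter (0.0772) and with only these 2 groups (0.0856). It was also lost without uninjured animal 42 or 154, WT SCI animal 9843 or 9596, or STAT3-CKO SCI animal 531 or 270 (adjusted p from 0.0543 to 0.129). In the flow-through libraries microglia and macrophage markers summed to 60.7 to 122 CPM uninjured and 3182 to 8778 in WT SCI, and their part in these changes was not tested. WT SCI flow-through values rest on 91626 to 615302 counts outside the 3 ribosomal rows. Relative to those counts alone, the floor of 3 counts corresponds to 4.88 to 32.7 CPM. This floor cannot be compared with the TMM-scaled CPM printed for members. S100a10 in WT SCI flow-through of animal 9935, at 7.88 TMM-scaled CPM, rests on 4 counts. Some calls rest on few counts too. In WT SCI flow-through (animals 9935, 9874, 9843 and 9596) S100a4 had 1, 5, 14 and 4 raw counts. S100a11 had 0, 9, 4 and 19. In uninjured flow-through (animals 42, 79, 65 and 154) S100a4 had 0, 12, 5 and 11.

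The genotype groups could not be separated in flow-through. Of 15 members tested 0 were called in either direction by edgeR, where 0.118% of all genes were called (0.0867% higher, 0.0315% lower). By the same test 5 members had an unadjusted p under 0.05. DESeq2 also called 0, with 4 at an unadjusted p under 0.05. The share of all genes at that unadjusted threshold is not given here, so these counts have no background to be read against. S100a6 read 15.1, 9.35 and 7.36 CPM in STAT3-CKO SCI against 15.8 to 38.2 in WT SCI, without overlap (log2 -1.33, SE 0.49, adjusted p = 0.243). S100a1 had a log2 difference of -1.30 (SE 0.40, adjusted p = 0.175) and Anxa5 one of 0.69 (SE 0.32, adjusted p = 0.362). Against uninjured flow-through, STAT3-CKO SCI had 7 members higher (Anxa2, Anxa3, Anxa4, Anxa5, S100a4, S100a6 and S100a11) and 1 lower (Anxa6), where 10.4% of genes were called higher and 3.53% lower (13.9% in all). The Anxa6 call was lost without uninjured animal 79, 65 or 154 or STAT3-CKO SCI animal 186 or 531 (adjusted p from 0.0691 to 0.212), that of S100a6 without animal 186 (0.0953) and that of S100a11 without animal 270 (0.0772).

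Whether the 2 fractions responded differently was tested directly with all 22 libraries in 1 fit. For the injury effect 0 of 20 members tested were called by edgeR, with 4.71% of all 15142 genes called (2.67% higher, 2.03% lower) and 3 members at an unadjusted p under 0.05. These were Anxa4 (log2 -1.59, SE 0.61, adjusted p = 0.143), Anxa5 (-0.96, SE 0.38, adjusted p = 0.158) and Anxa7 (1.18, SE 0.51, adjusted p = 0.209). Positive values mean that the log2 difference for injury was higher in HA IP than in flow-through. With the animal as a replicate block Anxa4 (-1.63, adjusted p = 0.0196) and Anxa5 (-0.96, adjusted p = 0.0130) were called, and DESeq2 called the same genes. So a lower log2 difference for injury in HA IP than in flow-through was called for these annexins in some fits and not in others. For Anxa4 this was a smaller rise in HA IP. For Anxa5 the HA IP difference lay below 0 and was not called, while that in flow-through lay above 0. For the genotype effect 0 of 20 were called with 0.0264% of all genes called (0.0066% higher, 0.0198% lower), 2 members at an unadjusted p under 0.05 and 0 called by DESeq2. For both effects the share of all genes at an unadjusted p under 0.05 is not given here. The genotype difference of S100a6 in HA IP was thus not shown to exceed that in flow-through (log2 -1.43, SE 0.60, adjusted p = 0.773).

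HA IP was compared with flow-through within each state to see which members are enriched in the tagged cells. Each state was scaled on its own, so CPM values here are not comparable with those above, and because flow-through counts are contained in the HA IP counts the log2 differences are drawn towards 0. In uninjured animals 10 of 17 members were higher in HA IP and 1 lower, where 26.4% of genes were called higher and 24.2% lower (50.7% in all). All 8 S100 genes tested other than S100pbp were higher, S100a4 (log2 2.17, SE 0.75, adjusted p = 0.0319) only marginally. Its call ended on leaving out 1 of the HA IP libraries 79, 65 and 154 or flow-through libraries 65 and 154 (adjusted p from 0.0527 to 0.0757). S100a6 read 55.0, 90.6, 106 and 75.3 CPM in HA IP and 4.17, 18.8, 17.8 and 13.9 in flow-through (log2 2.62, SE 0.40, adjusted p = 0.000271). S100a13 (2.58, SE 0.27) and S100a1 (2.53, SE 0.29) were close to it in size, and S100b was at 1.32 (SE 0.26). Of the annexins Anxa5 was higher (343, 419, 423 and 336 CPM against 54.6, 93.5, 106 and 78.3; log2 2.20, SE 0.20, adjusted p = 8.48e-06) and Anxa4 marginally so (0.96, SE 0.35, adjusted p = 0.0416). The Anxa4 call was lost with all 22 libraries in 1 fit (0.142) and without HA IP library 79, 65 or 154 or flow-through library 65 (0.0648 to 0.134). Anxa2, Anxa3, Anxa6, Anxa7, Anxa9 and Anxa11 did not pass, and S100pbp was lower (-1.19, SE 0.17).

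In WT SCI 4 of 15 members were higher in HA IP and 0 lower, with 4.09% of genes called higher and 2.16% lower (6.25% in all). They were S100a6 (log2 2.97, SE 0.36, adjusted p = 3.58e-05), S100a13 (1.74, SE 0.38), S100a1 (1.63, SE 0.40) and S100a16 (1.56, SE 0.31). The S100a1 call was lost without the flow-through library of animal 9874 (adjusted p = 0.0511) or 9843 (0.0656). With the animal as a replicate block 8 members were called, S100a4, S100a11, S100b and Anxa5 in addition. In STAT3-CKO SCI 2 of 16 members were higher and 0 lower, S100a1 (1.86, SE 0.31, adjusted p = 0.000801) and S100a6 (1.61, SE 0.42, adjusted p = 0.0185), with 7.12% of genes called higher and 4.7% lower (11.8% in all). The S100a6 call there ended when the HA IP of animal 186 was left out (adjusted p = 0.110), or the flow-through of animal 531 (0.0873) or 270 (0.0809). The replicate block gave 7 there, with S100a10, S100a13, S100a16, S100b and Anxa6 in addition. The shares of all genes called with the replicate block are not given here. Its larger member counts in both injured states therefore have no background to be read against. Anxa2, Anxa3 and Anxa4 had log2 values below 0 in both injured states, from -0.20 to -0.97, and none passed the test.

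**Figure D5:**
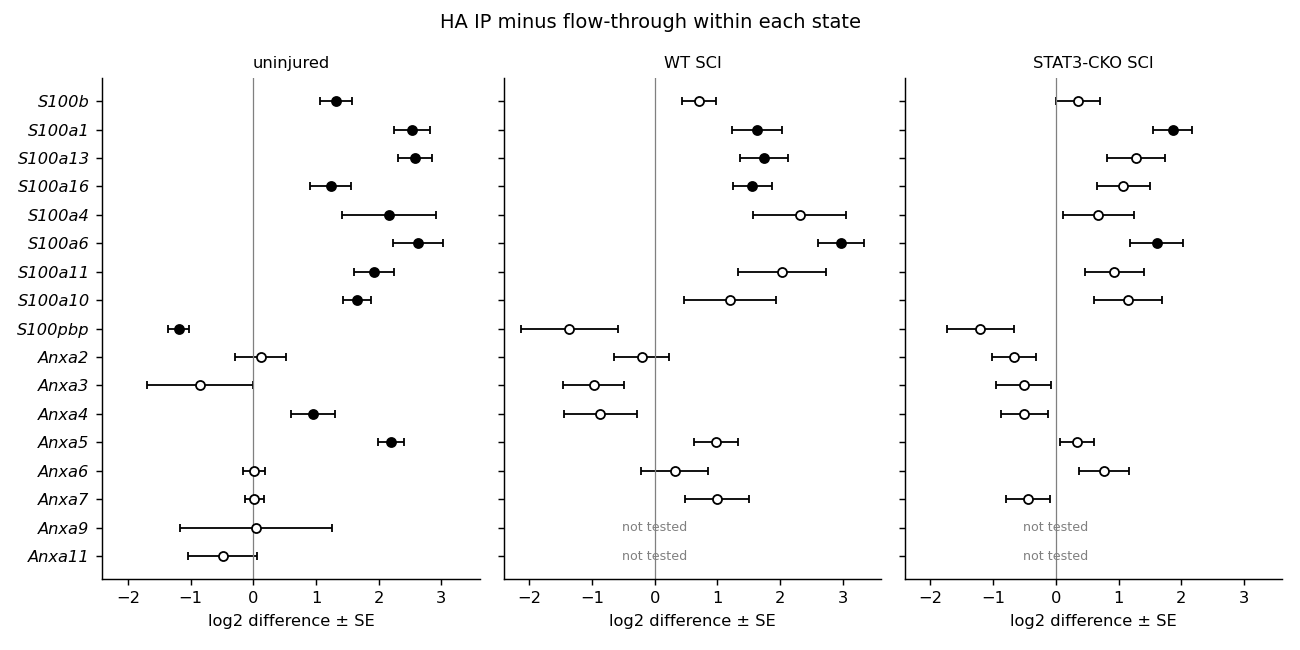
Log2 difference ± SE between HA IP and flow-through within uninjured, WT SCI and STAT3-CKO SCI animals; filled points passed the test at an adjusted p under 0.05. The S100 genes other than S100pbp lie to the right of 0 in each state, while Anxa2, Anxa3 and Anxa4 lie near or to the left of it after injury.

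Known partners were set side by side. In HA IP, Anxa2 rose and S100a10 fell with injury in wild-type animals, as given above, and in flow-through Anxa2 was higher (log2 2.65, SE 0.45, adjusted p = 4.84e-05) while S100a10 did not pass (-1.08, SE 0.57, adjusted p = 0.152). S100a11 rose, but its partner Anxa1, an anti-inflammatory annexin, had too few counts to be tested here, although the authors' deposited table lists it as higher. Raw HA IP counts of Anxa1 were 0, 3, 0 and 0 in uninjured, 0, 3, 6 and 1 in WT SCI and 0, 5 and 76 in STAT3-CKO SCI. Only animals 9843, 531 and 270 were above the floor of 3 counts, and in animals 9874, 9843 and 531 the flow-through count was the same number. In animal 270 it was 60. S100a6 rose while Anxa11, a partner found in binding studies, was at most 0.349 CPM in every HA IP library (log2 -0.87, SE 1.15, adjusted p = 0.602).

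The myeloid S100 genes were close to absent. S100a8 and S100a9, which form calprotectin and are abundant in neutrophils, were not tested in the HA IP or the flow-through fit. S100a8 had 0, 0, 0 and 1 raw HA IP counts in uninjured, 0, 0, 1 and 1 in WT SCI and 0, 0 and 4 in STAT3-CKO SCI. S100a9 had 0, 9, 0 and 22, then 0, 0, 1 and 1, then 6, 0 and 8, with no sign of a common direction. At 620265 to 2691494 counts outside the ribosomal rows, 3 counts correspond to 1.11 to 4.84 CPM of those counts in WT SCI. In each library, lower levels on that scale fall below the floor of 3 counts. That scale leaves out the ribosomal rows, so it cannot be compared with the TMM-scaled CPM printed for members. S100a4 in the HA IP of WT SCI animal 9935, at 4.56 TMM-scaled CPM, rests on 14 counts. Counts cover counting error only, since the reads carry no molecular identifiers. Among the remaining S100 rows S100a3 reached 89 counts in animal 531 and at most 12 elsewhere, S100a14 and S100a7a at most 14 and 19, S100g and S100a2 at most 4 and 2. Anxa8, Anxa10 and Anxa13 reached at most 13, 4 and 10.

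Of 28 fixed partner and receptor genes outside the module, 23 were tested in HA IP, and 10 were higher and 2 lower in WT SCI. The shares of all genes tested were 15.8% higher and 10.9% lower. Among the higher were the scaffold of S100A10 and annexin A2 Ahnak, the S100A4 target Myh9, Dysf and Capn1 of membrane repair, Tgm2, the receptors Cd36, Tlr4 and Plaur, and Plau of the plasminogen system. Alcam was among the lower. Between genotypes Ahnak was lower in STAT3-CKO SCI (5.61, 3.89 and 5.32 CPM against 14.3, 16.9, 46.9 and 15.7; log2 -2.25, SE 0.44, adjusted p = 0.0162), without overlap. Ager, which encodes RAGE, was called higher at low level, with 4.77, 1.15 and 0.19 CPM in STAT3-CKO SCI against 0, 0, 0 and 0.07 in WT SCI (adjusted p = 0.0382). Its STAT3-CKO SCI value in animal 270 was close to the uninjured range of 0.08 to 0.16 CPM.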

How the data were processed

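Ribosome-associated (HA IP) and flow-through RNA of 11 mice was sequenced, 22 libraries in 6 groups. Per the labels' protocols, 5 ng of RNA was amplified with NuGEN Ovation V2; per the submitters' processing notes CASAVA 1.8.2, edgeR and mm10 were used; the sources used here do not give the aligner, the counter or the strand setting. Per the file headers, the deposited tables hold the authors' raw counts per gene, adjusted FPKM, and the authors' log2 fold changes and FDR p-values. The raw counts were used for all tests; the deposited FPKM served only to compare levels between genes. The deposited tables hold 123 further per-sample columns that entered no step, and no row lacked a gene name.

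Counts were fitted with edgeR 4.0.16 (R 4.3.3): filterByExpr, TMM scaling, quasi-likelihood F test, Benjamini-Hochberg adjustment over all genes tested, called at adjusted p under 0.05. SE is the log2 difference divided by the root of F. HA IP and flow-through were each fitted with 3 groups; fractions were compared within a state and, for differences between effects, with all 22 libraries. Same-animal HA IP and flow-through deviations correlated at 0.230 to 0.758, each best with its own animal. The fractions share counts within an animal, so this correlation does not test the pairing, which rests on the labels' animal number. Replicates differed by more than counting noise (lowest chi-square per degree of freedom 4.83). Nothing in the labels says that animals of a group came from separate litters or days. Alternatives were RLE scaling, DESeq2 1.42.0, no filter, ribosomal rows removed, 2 groups only, thinning to 620265 (HA IP) or 91626 (flow-through) counts, the animal as a replicate block, leaving out each library, and subtraction of flow-through counts. The edgeR step was tested on simulated data.

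Members, gene lists and alternatives were chosen with earlier results of these data known. Values of every HA IP library are given for members called for injury or genotype and for S100b, S100a1, S100a8, S100a9, S100a10, Anxa2 and Anxa1. Of 13 marker lists those with tested genes in the text are reported; lymphocyte, blood and endothelial lists had 0, 0 and 2 genes tested in HA IP, of which 1 endothelial gene was higher in WT SCI, and neuron, sensory or motor neuron, precursor, Schwann and ependymal lists had 0, 0, 5, 1 and 1 genes higher in WT SCI, and 5 of 10 neuron genes were lower. Sequences and starts come from RefSeq (GRCm38.p6); exons from GENCODE vM21. Some genes of the partner list are not reported here by name.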

Additional observations from a re-analysis of the deposited data

Results flagged for a closer look

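Among 64 member and group combinations with 4 animals, 1 held an outlying library by Dixon's test at its 95% critical value, where chance gives about 1 in 20. S100a10 in the WT SCI flow-through read 7.88 CPM in animal 9935, against 2.21 to 3.07 CPM in the other 3 animals. That library is the shallowest, with 91626 counts outside the ribosomal rows, and the value rests on 4 counts.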

How the results depend on the processing

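Across the alternatives run, no member changed direction after being called. Single values were followed for members in the comparisons where they were called, and for S100b, S100a1, S100a10, Anxa2, S100a6 and Anxa5 throughout. Of these values 1678 kept their side of the threshold, 93 lost a call and 11 gained one. Calls gained by other members, such as S100a4 with DESeq2 between genotypes, are not in this tally. Depth limits the WT SCI libraries most. For STAT3-CKO SCI versus WT SCI in HA IP, members called lower numbered 5 as reported, 8 with DESeq2, 1 with only these 2 groups, and 1 to 5 with a library left out. With only these groups 30.6% of all calls were higher, against 51.5% as reported, and for WT SCI versus uninjured 48.7% against 59.2%. For STAT3-CKO SCI versus uninjured in HA IP, 4 members higher became 2 with thinning, 2 with flow-through counts subtracted, and 2 to 5 with a library left out. In WT SCI versus uninjured HA IP, members lower numbered 1 to 2 with a library left out.

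In flow-through only 7 members passed the filter after thinning, of which 6 were called higher in WT SCI (11 of 15 as reported) and 3 in STAT3-CKO SCI versus uninjured (7 of 15), where members lower numbered 0 to 1 with a library left out. RLE scaling moved the median log2 difference of all flow-through genes from -0.09 to -0.21 for WT SCI, and the share of higher calls from 74.7% to 62.6% for STAT3-CKO SCI versus uninjured.

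For HA IP versus flow-through in uninjured animals, members lower were 0 when all 22 libraries shared 1 fit, and 1 to 2 with a library left out. In WT SCI members higher were 8 with the animal as a replicate block and 8 with 22 libraries in 1 fit, against 4. In STAT3-CKO SCI they were 5 with no filter, 7 with the replicate block, and 2 to 4 with a library left out, against 2. The injury effect differed between fractions for 2 members with DESeq2, 2 with the replicate block and 1 with flow-through counts subtracted, against 0. Fewer genes or samples enter some of these fits, and otherwise the cause was not tested. The share of all genes called in each alternative is not given beside these member counts. The replicate block changed no other count of calls by more than 1.5 times.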
